A study of Mus musculus with 8 samples.

Results

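The accessible chromatin around 3 target genes of the transcription factor Stat5 (Pim1, Cish and Bcl2l1) was examined in peak lists from mouse bone marrow cells with and without the Flt3-ITD mutation. Every deposited peak was taken that overlapped, by at least 1 bp, one of 3 windows of the mm9 mouse genome: chr17:29590000-29670000 (80 kb, named for Pim1), chr9:107170000-107230000 (60 kb, Cish) and chr2:152590000-152680000 (90 kb, Bcl2l1). The windows held 272 of the 555490 distinct peaks of the 8 lists. Peaks of different libraries that overlapped by at least 1 bp were merged into regions, which gave 51 regions in the windows (13 at Pim1, 21 at Cish and 17 at Bcl2l1) of 114533 in the genome. Regions are numbered from the lowest coordinate within each window. A region counts as called wherever a library's own list has a peak inside it, and its width in a library is the number of its bases covered by that library's peaks. No gene model of mm9 was used here, so the position of a region relative to exons, introns and start sites is not given.

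Stat5 is a latent transcription factor that Janus kinases activate downstream of cytokine receptors. Flt3 is a receptor tyrosine kinase of early blood progenitors. Its internal tandem duplication, Flt3-ITD, is a common mutation of acute myeloid leukaemia, signals without ligand and activates Stat5, which the normal receptor does only weakly. Pim1 is a serine/threonine kinase that promotes survival and growth. Cish belongs to the suppressors of cytokine signalling and is a feedback inhibitor of Stat5 signalling. Bcl2l1 encodes Bcl-xL, which protects cells from apoptosis. Smc3 is one of the ring proteins of cohesin, which links sister chromatids and forms chromatin loops.

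ATAC-seq, in which a transposase inserts adapters into DNA it can reach, was run on 50000 cells per sample, and each of the 4 genotypes had 2 libraries, numbered 1 and 2. The cells were selected with magnetic beads for c-Kit, a receptor of stem and progenitor cells, from marrow of individual mice taken 4 weeks after PIpC, the inducer of the interferon-responsive Mx1-Cre recombinase. Controls were Smc3 fl/+ mice without Mx1-Cre, and the Smc3 del/+ mice carried Mx1-Cre and had lost a single Smc3 allele. The Flt3-ITD mice carried Mx1-Cre per the titles, and the last group carried Mx1-Cre, deleted Smc3 and Flt3-ITD. This group is called Smc3-deleted Flt3-ITD, because the genotype label reads Smc3 fl/del and the title reads heterozygous, which leaves the second Smc3 allele unsettled. No source used here gives the strain, age or sex of the mice. Mx1-Cre was absent in the controls only, so the recombinase and the Flt3-ITD allele cannot be told apart in a comparison with controls alone. Mx1-Cre acts in blood cells at large, and bead selection for c-Kit yields a mixture of progenitors. In such bulk samples a change in the share of cells with an open site and a change within each cell cannot be told apart.

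The labels conflict at 1 point: the descriptions of the Flt3-ITD libraries read as Smc3 del/+, and those of the Smc3 del/+ libraries as Flt3-ITD, against title and genotype. Groups follow title and genotype, and results are also given with both groups exchanged where that changes them. The lists held 61953 to 80698 peaks covering 34.1 to 41.7 Mb and no read numbers, so the sequencing depth is unknown. The Smc3-deleted Flt3-ITD libraries stood apart: their lists were the longest, and they had 292 and 280 peaks on chromosome Y against 83 to 97 in the other 6 libraries, with 2.60% and 2.72% of peaks on chromosome X against 3.49% to 3.78%. The part of these differences in the results was not tested, and results are also given without these libraries where that matters. The markers of c-Kit+ progenitors could not be placed on mm9 and were not analysed here.

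Stat5 binds as a dimer to a palindrome of the form TTCNNNGAA. The RefSeq promoters of the 3 genes (build GRCm38.p6, 250 bases before to 50 after the gene start) were searched for it, as a description of letters only. The palindrome reads the same on both strands, so a single strand covers both. The Cish promoter, on the plus strand, held 2 matches, and it is shown because it carries both. They begin at the first and at the 12th base of the gene, which are position 1 and position 12 counted from the gene start. The run below stops 30 bases after the start, and the capitals mark the 2 matches.
Cish promoter: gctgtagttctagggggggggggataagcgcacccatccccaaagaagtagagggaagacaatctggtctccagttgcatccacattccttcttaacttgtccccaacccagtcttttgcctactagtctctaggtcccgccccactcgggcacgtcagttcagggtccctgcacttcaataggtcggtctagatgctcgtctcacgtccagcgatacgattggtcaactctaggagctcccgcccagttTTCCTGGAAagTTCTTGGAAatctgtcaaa
A match was found in 8.30% of all 32851 RefSeq mouse promoters, and 2 or more in 0.457%. The 2 listed promoters of Pim1 and the 3 of Bcl2l1 held none, which says only that these letters are not in these 300 bases. Of 22 genes of the Stat5 pathway listed for this search, only 16 had a promoter in the table, which is too few for a statement on the list. In the gene order of GRCm38.p6, the protein-coding neighbours are Fgd2 and Tmem217 for Pim1, Mapkapk3 and Hemk1 for Cish, and Cox4i2 and Tpx2 for Bcl2l1.

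Many sites at the 3 genes were called in every library. Of the 51 regions, 22 were called in all 8 libraries (6 at Pim1, 10 at Cish and 6 at Bcl2l1), or 43.1% against 31.5% of all regions. A further 22 were called in 2 to 7 libraries, and 7 in a single library (13.7% against 24.0% of all regions). Both libraries of each genotype had the same call in 30 regions, or 58.8%, against 42.7% of all regions. The authors' score runs from 0.99 to 1 in every list. It was used only to rank peaks within a list, as a percentile in which all peaks tied at 1 share the same value, 82.5 to 86.4 depending on the library. A peak at the top score in all 8 libraries was present in 7 regions, or 13.7% against 11.2% of all regions.

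These 7 top-scored regions lay in all 3 windows. In the Pim1 window it was region 3 (chr17:29627025-29629162). At Cish, the feedback inhibitor, there were 3, region 6 (chr9:107182000-107183751), region 10 (chr9:107191908-107192370) and region 13 (chr9:107198478-107199537). At Bcl2l1 there were also 3, region 7 (chr2:152614378-152615271), region 16 (chr2:152657190-152657648) and region 17 (chr2:152673722-152674162). Region 17 of Bcl2l1 was 425 and 395 bases wide in controls, 412 and 371 in Smc3 del/+, 407 and 411 in Flt3-ITD and 421 and 420 in Smc3-deleted Flt3-ITD libraries. Region 16 was 401 and 424 bases wide in controls, 391 and 405 in Smc3 del/+, 417 and 386 in Flt3-ITD and 326 and 387 in Smc3-deleted Flt3-ITD libraries. Both regions had nearly the same width everywhere, and libraries with and without Flt3-ITD overlapped.

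**Figure D1:**
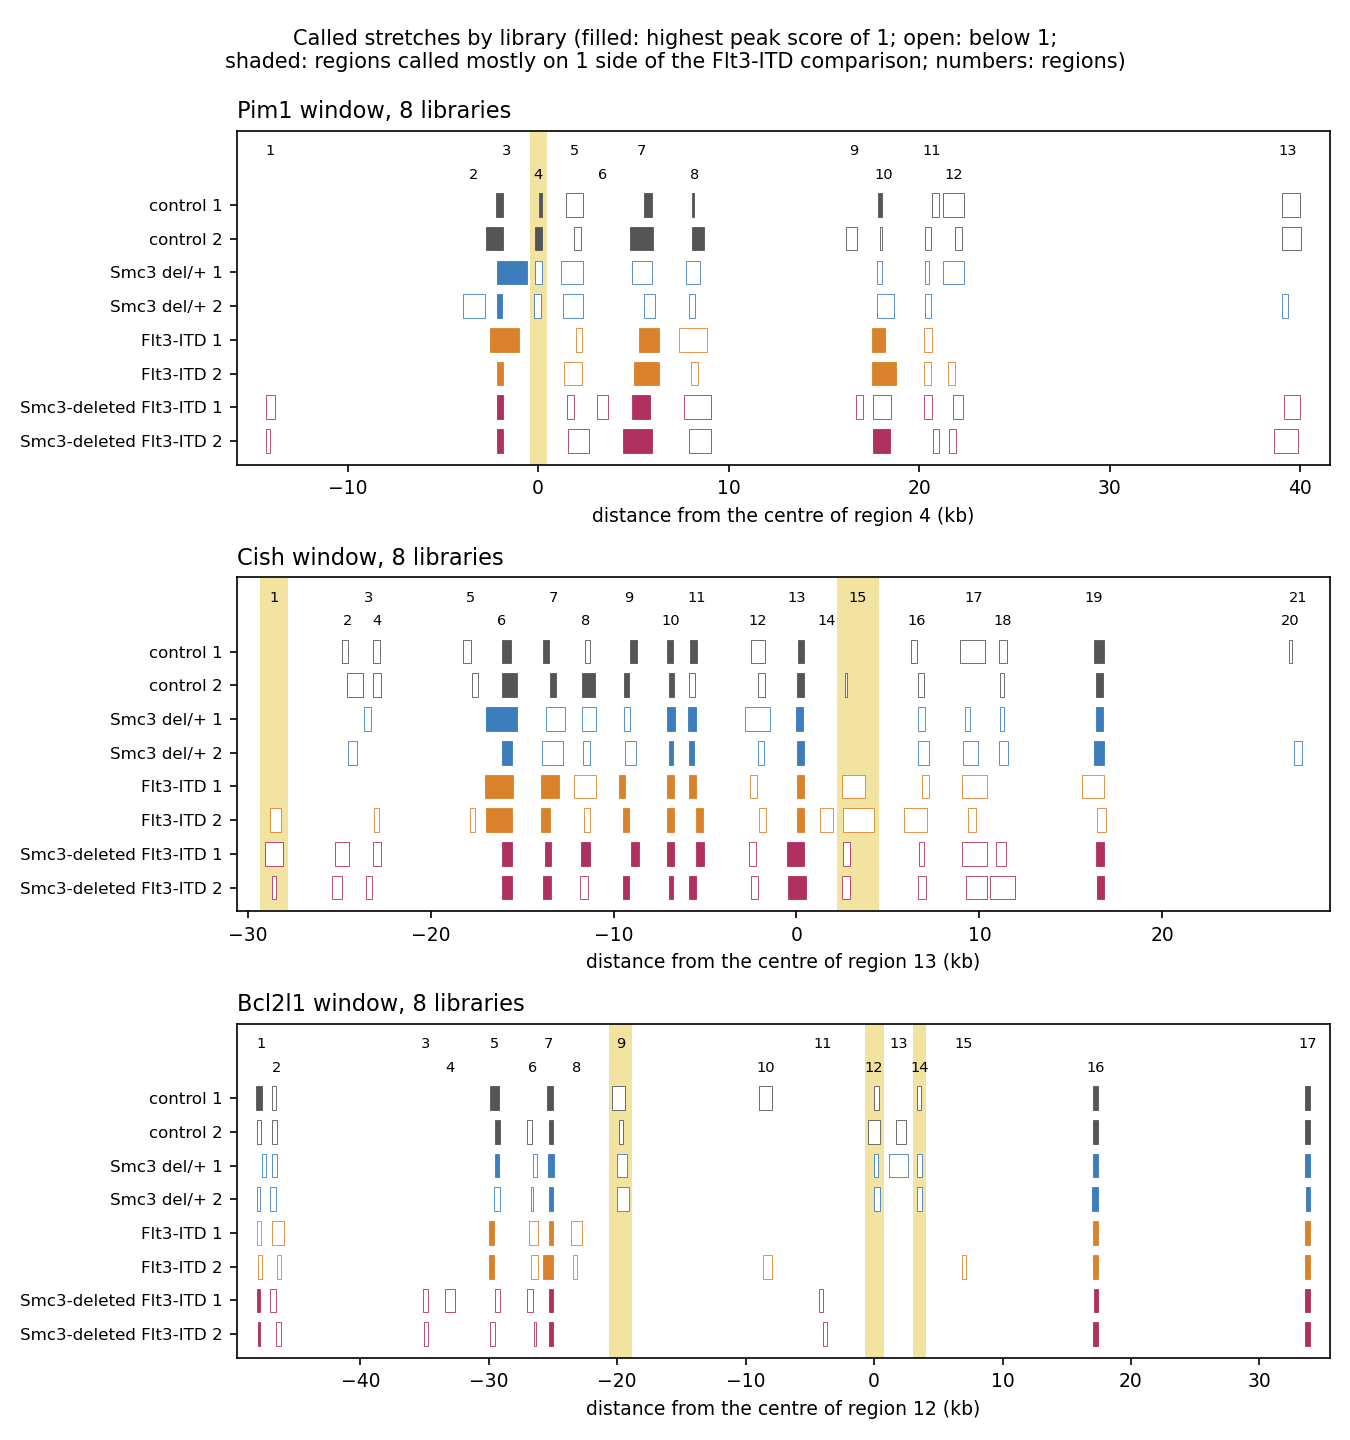
Called stretches of each library (rows, 2 per genotype) in the Pim1, Cish and Bcl2l1 windows against the distance in kb from the centre of a named region; each box runs from the first to the last called base of a region, filled boxes reach the top score of 1, small numbers are region numbers and shading marks the 6 regions called in at least 3 of 4 libraries on 1 side of the Flt3-ITD comparison and at most 1 of 4 on the other. Pim1 region 4 and Bcl2l1 regions 9, 12 and 14 have no box in the 4 rows with Flt3-ITD.

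Sites called in every library without Flt3-ITD and missing in every library with it were found at Pim1 and Bcl2l1. Of the 51 regions, 3 were called in all 4 libraries without Flt3-ITD and in none of the 4 with it (5.88% against 1.14% of all regions), and 0 showed the reverse (0.88% of all regions). Of the regions called in at least 4 libraries, the first pattern held for 3 of 33 (9.09% against 2.04%) and the reverse for 0 of 33 (1.57%). A region of either pattern passes that filter through its own 4 calls, so this restates the same 3 regions and adds no support. All the numbers of this paragraph are counts of calls with no test. With the descriptions' groups in place of the titles' groups, 0 of 51 regions showed the first pattern. Over the genome that count also fell, from 1310 to 193 of 114533 regions. Allowing 1 exception on each side, 4 regions were called mainly without Flt3-ITD (7.84% against 3.87%) and 2 mainly with it (3.92% against 5.98%).

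At Pim1, the kinase gene, the region called only without Flt3-ITD was region 4 (chr17:29629549-29629949). It was 165 and 371 bases wide in controls, 358 and 330 in Smc3 del/+ libraries and not called in any library with Flt3-ITD. In both controls its peak had the top score, and in the Smc3 del/+ libraries it stood at score percentiles 69.1 and 54.2. Of the 1310 regions of the genome called only without Flt3-ITD, 13 had the top score in both controls (0.992%). This criterion was taken from region 4 itself after its values were seen. The nearest peaks of the libraries with Flt3-ITD were 796 and 1141 bp away in the Flt3-ITD libraries and 1334 and 1347 bp away in the Smc3-deleted Flt3-ITD libraries. Region 4 thus lay close to peaks that every library had, between regions 3 and 5 of the same window, and the call itself was missing in all 4 libraries with Flt3-ITD. A setting chosen after seeing the data also counted a peak within 1 kb as a call. The 796 bp of Flt3-ITD library 1 then made region 4 called there, so that region 4 no longer had this pattern.

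At Bcl2l1, the anti-apoptotic gene, 2 regions were called only without Flt3-ITD, and a further 1 mainly so. Region 9 (chr2:152619763-152621097) was 1018 and 355 bases wide in controls, 769 and 892 in Smc3 del/+ libraries and not called with Flt3-ITD. Region 12 (chr2:152639695-152640678) was 356 and 984 bases wide in controls, 275 and 425 in Smc3 del/+ libraries and not called with Flt3-ITD. Region 14 (chr2:152643504-152643945) was 347 bases wide in control 1, not called in control 2, 389 and 328 wide in Smc3 del/+ libraries and not called with Flt3-ITD. All 3 separated the sides except for control 2 in region 14, where the nearest peak was 862 bp away.

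None of these Bcl2l1 sites ranked high. The score percentiles were 9.49 and 35.4 in controls and 15.7 and 45.6 in Smc3 del/+ libraries at region 9. At region 12 they were 35.8 and 9.65 in controls and 54.2 and 34.2 in Smc3 del/+ libraries. At region 14 they were 49.8 in control 1 and 37.6 and 3.00 in Smc3 del/+ libraries. They were all below the top score, in contrast to Pim1 region 4. Among peaks of the upper 50% of each list only, 1 of 30 window regions was called only without Flt3-ITD, beside 314 of 56689 in the genome. Among peaks at the top score 0 of 19 were, beside 45 of 36312. With equal numbers of peaks 2 of 44 were, beside 1418 of 99669. The difference in the share of libraries calling region 9 was then -75 percentage points.

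Libraries with Flt3-ITD had no peak close to Bcl2l1 regions 9 and 12. The nearest peaks to region 9 were 2287 and 2703 bp away in Flt3-ITD libraries and 4564 and 4574 bp away in Smc3-deleted Flt3-ITD libraries. For region 12 these distances were 16543 and 6386 bp in Flt3-ITD and 3483 and 3146 bp in Smc3-deleted Flt3-ITD libraries. Both lacked any peak within 1 kb in the libraries with Flt3-ITD, as did 83.9% of the 1310 regions of this pattern in the genome.

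From the start of region 9 to the end of region 14, the Bcl2l1 window spans 24.2 kb with 6 regions. Its ends were set at regions already seen to lack calls with Flt3-ITD, so that its totals restate those calls and are given as a description. Region 13 (chr2:152641372-152642836) was called in control 2 with 755 bases and in Smc3 del/+ 1 with 1465 bases only. Over all 6 regions there were 14 of 24 calls without Flt3-ITD and 3 of 24 with it. The covered bases were 2740 and 2094 in controls, 2898 and 1645 in Smc3 del/+, 0 and 706 in Flt3-ITD and 343 and 375 in Smc3-deleted Flt3-ITD libraries. With the groups of the descriptions the sides overlapped, at 2740, 2094, 0 and 706 against 2898, 1645, 343 and 375 bases.

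The remaining calls of the stretch were a single Flt3-ITD peak in region 10 (chr2:152631224-152632242), which control 1 also had, and region 11 (chr2:152635869-152636548). Region 11 had calls in the Smc3-deleted Flt3-ITD libraries, 1 and 2, and nowhere else. Outside the stretch, the Bcl2l1 sites called in all 8 libraries flanked it on both sides, regions 5 and 7 below and regions 16 and 17 above.

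Both regions called mainly with Flt3-ITD lay at Cish, and their share of the window regions (3.92%) was below that over all regions (5.98%). Region 15 (chr9:107201478-107203255) was not called in control 1, 119 bases wide in control 2 and not called in either Smc3 del/+ library, against 1289 and 893 bases in Flt3-ITD and 374 and 438 in Smc3-deleted Flt3-ITD libraries. The widths with Flt3-ITD all exceeded the single narrow call of control 2. Score percentiles were 27.7 in control 2, 57.3 and 48.7 in Flt3-ITD and 50.3 and 58.2 in Smc3-deleted Flt3-ITD libraries. In the other 3 libraries without Flt3-ITD the nearest peak was 2017 to 2101 bp away. In the genome, 296 regions had the same calls in all 8 libraries.

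Cish region 1 (chr9:107169930-107170935), at the edge of the window, was called in Flt3-ITD 2 with 616 bases and in the Smc3-deleted Flt3-ITD libraries with 1006 and 230 bases. It was not called in the other 5 libraries, Flt3-ITD 1 included. Its peaks ranked low, at score percentiles 17.9, 29.2 and 5.47, and 849 regions of the genome had the same calls. With groups taken from the descriptions, the difference in the share of libraries calling Cish region 15 turned from 75 to -25 percentage points.

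**Figure D2:**
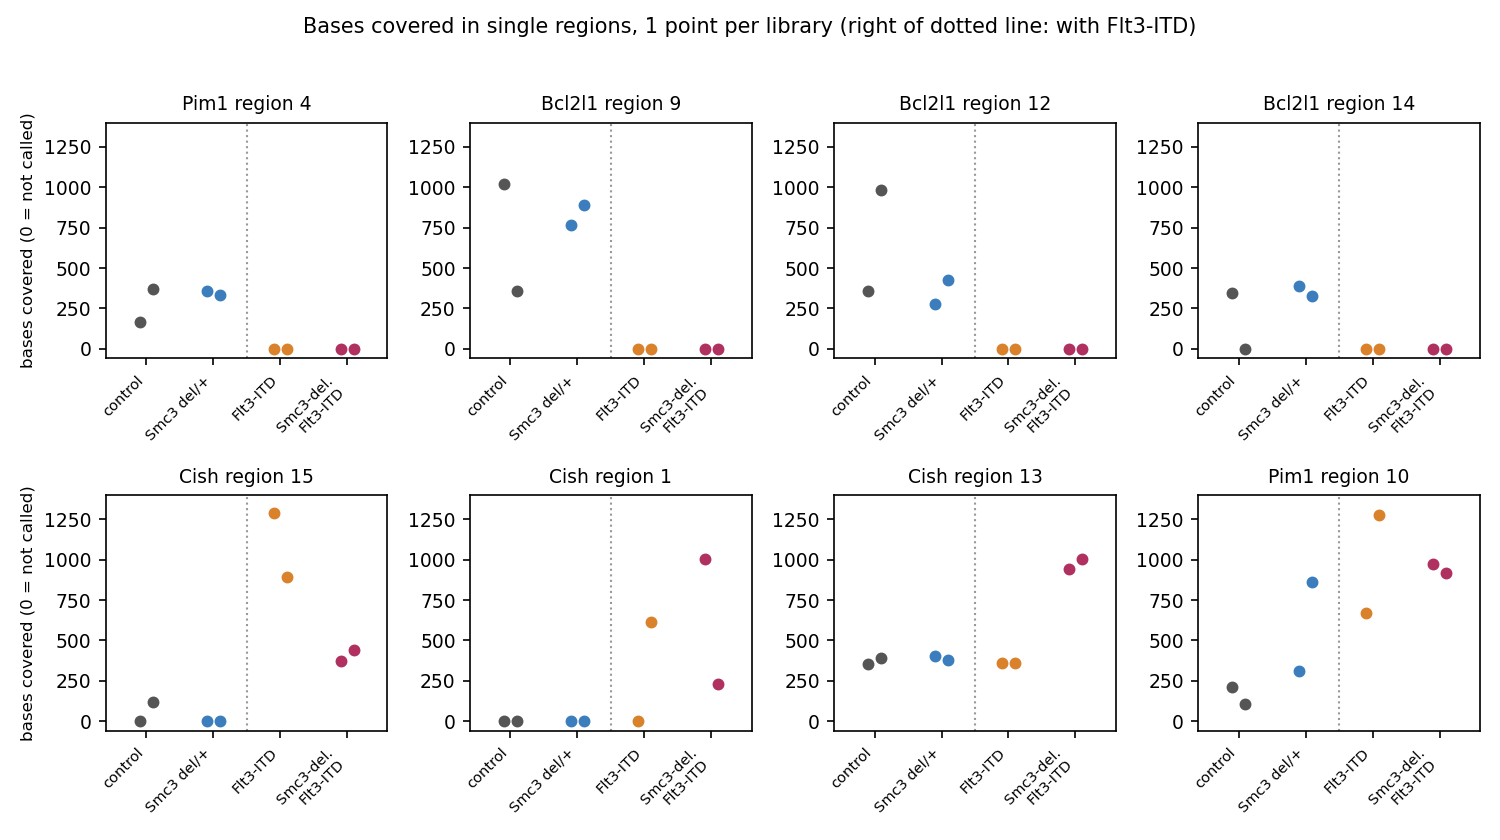
Bases covered by peaks in 8 single regions (vertical axis, 0 meaning not called), 1 point per library by genotype, with libraries with Flt3-ITD to the right of the dotted line. Pim1 region 4 and Bcl2l1 regions 9, 12 and 14 are at 0 in all 4 libraries with Flt3-ITD, Cish region 15 is widest in the Flt3-ITD libraries (1289 and 893 bases), and Cish region 13 is wide in the Smc3-deleted Flt3-ITD libraries only (941 and 1003 bases).

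Some sites followed a single genotype. Calls in the pair of Smc3-deleted Flt3-ITD libraries and in no other were found in 3 regions (5.88% against 4.55% of all regions): Pim1 region 1 (chr17:29615447-29615950, 473 and 239 bases), Bcl2l1 region 3 (chr2:152605071-152605473, 403 and 305 bases) and Bcl2l1 region 11 (343 and 375 bases). That share is near the background, in the 2 longest lists. Called in both Flt3-ITD libraries alone was Bcl2l1 region 8 (chr2:152616565-152617475), with 911 and 350 bases, the 1 region of this kind in the windows (1.96% against 0.34% of all regions). For controls alone and for Smc3 del/+ alone the count was 0 (0.632% and 0.59% of all regions).

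Cish region 18 (chr9:107209603-107210944) was missing in the Flt3-ITD libraries and called in the other 6. It covered 451 and 253 bases in controls, 261 and 500 in Smc3 del/+ and 560 and 1342 in Smc3-deleted Flt3-ITD libraries. The nearest peak was 169 bp away in Flt3-ITD 1 and 809 bp away in Flt3-ITD 2, so both had a peak within 1 kb. It was the 1 region of that pattern in the windows (1.96% against 0.412% of all regions).

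Over whole windows, the 2 sides of the Flt3-ITD comparison were separate in covered bases at Cish and overlapped at Pim1 and Bcl2l1, and no difference passed the correction. The peaks of the Cish window covered 7326 and 6208 bases in controls, 8177 and 7247 in Smc3 del/+, 9689 and 9036 in Flt3-ITD and 9160 and 8610 in Smc3-deleted Flt3-ITD libraries. The 4 libraries with Flt3-ITD lay above all 4 without. This counts all 1006 bases of a Smc3-deleted Flt3-ITD 1 peak that crosses the window edge. The means were 9124 ± 444 bases (SD, n = 4) with and 7239.5 ± 806 bases (SD, n = 4) without Flt3-ITD, a difference of 1884 bases or 26.0%. The two-sided exact permutation test over 70 assignments gave p = 0.0286, the smallest it can give, and an adjusted p of 0.343 over the 12 locus tests run (3 windows by 4 measures, Benjamini-Hochberg), so the difference did not pass the correction. The labels do not say which mouse gave which library, so this p measures the spread between these libraries, which may be technical.

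The Cish difference was 1540 to 2197 bases when each library was left out in turn. Without both Smc3-deleted Flt3-ITD libraries it was 2123 bases (exact p = 0.0667). As a share of all bases covered in each list, it was 35.1 bases per Mb covered (exact p = 0.0857). With only peaks wholly inside the window it was 1633 bases, and with equal numbers of peaks 1811 bases. Both gave an exact p of 0.0571, above the smallest possible, so the sides then overlapped. With the groups of the descriptions it shrank to 234 bases (exact permutation test, adjusted p = 0.904). Cish peaks numbered 16 and 16 in controls, 14 and 15 in Smc3 del/+, 13 and 17 in Flt3-ITD and 16 and 16 in Smc3-deleted Flt3-ITD libraries (exact p = 1). The sides overlapped and their means were 0.25 peaks apart, so the difference in covered bases was not matched by one in peak number.

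At Bcl2l1 the covered bases were fewer with Flt3-ITD, but the groups overlapped. They were 5529 and 4685 in controls, 5598 and 4091 in Smc3 del/+, 4522 and 4444 in Flt3-ITD and 4261 and 2985 in Smc3-deleted Flt3-ITD libraries. The means were 4053 ± 720.4 bases with and 4976 ± 721 bases without Flt3-ITD (SD, n = 4 each), a difference of -18.5% (exact permutation p = 0.171, adjusted p = 0.490). Only Smc3 del/+ 2, at 4091, lay among the libraries with Flt3-ITD. Peak numbers were 10 and 10 in controls, 11 and 10 in Smc3 del/+, 8 and 10 in Flt3-ITD and 10 and 9 in Smc3-deleted Flt3-ITD libraries (exact p = 0.286).

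At Pim1 the covered bases were 4583 and 5910 in controls, 5644 and 5151 in Smc3 del/+, 5459 and 5003 in Flt3-ITD and 7242 and 6656 in Smc3-deleted Flt3-ITD libraries. The Smc3-deleted Flt3-ITD libraries were the highest, and the Flt3-ITD libraries lay within the range of those without Flt3-ITD. The difference of 768 bases did not pass the test (exact p = 0.286, adjusted p = 0.490) and was -91 bases without the Smc3-deleted Flt3-ITD libraries. Peak numbers were 9 and 10 in controls, 9 and 9 in Smc3 del/+, 6 and 7 in Flt3-ITD and 11 and 10 in Smc3-deleted Flt3-ITD libraries. The Flt3-ITD libraries had the fewest peaks and the Smc3-deleted Flt3-ITD libraries the most or as many as control 2, so that the pooled difference was -0.75 peaks (exact p = 0.657).

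**Figure D3:**
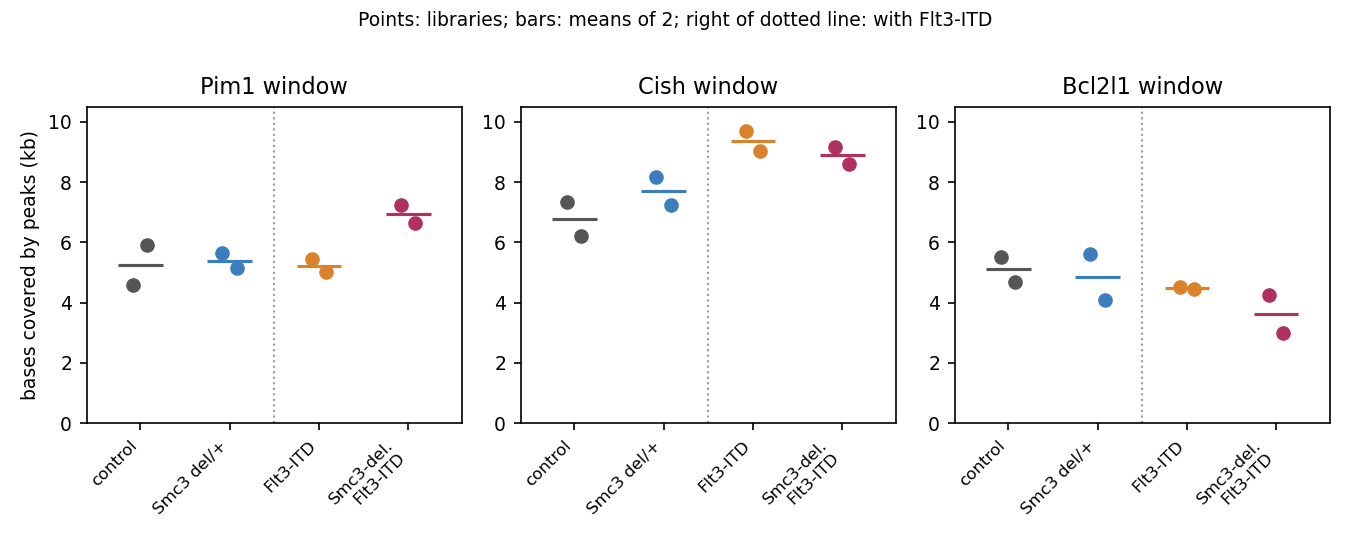
Bases covered by peaks (kb) in each of the 3 windows, 1 point per library, with bars for the mean of the 2 libraries of a genotype and libraries with Flt3-ITD to the right of the dotted line. In the Cish window the 4 libraries with Flt3-ITD (8610 to 9689 bases) lie above the 4 without (6208 to 8177 bases), and in the other 2 windows the sides overlap.

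The median peak width and the mean score percentile passed no test in any window. At Pim1 the median width was 397 and 491 bases in controls, 419 and 330 in Smc3 del/+, 865 and 372 in Flt3-ITD and 511 and 496.5 in Smc3-deleted Flt3-ITD libraries (exact p = 0.229). The high value belonged to Flt3-ITD 1, which had the fewest Pim1 peaks. At Cish the median width was 362.5 and 346.5 bases in controls, 397.5 and 433 in Smc3 del/+, 389 and 414 in Flt3-ITD and 463 and 439.5 in Smc3-deleted Flt3-ITD libraries (exact p = 0.171). At Bcl2l1 it was between 375 and 417.5 bases in all 8 libraries. Score percentiles averaged 40.4 to 64.9 at Pim1, 47.8 to 61.8 at Cish and 46.7 to 60.7 at Bcl2l1, with overlapping sides in each window. With the groups of the descriptions the Pim1 percentile differed by -12.0 (exact permutation p = 0.0286, the smallest possible, adjusted p = 0.343) in place of -2.25.

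The widths of the regions called in all 8 libraries were compared with limma, on the log2 scale after subtracting each library's median, over all 36101 such regions of the genome. A width difference with Flt3-ITD passed an adjusted p under 0.05 in 0 of the 22 window regions and 0 of 36101 in all (0.0%). At an unadjusted p under 0.05 there was 1 of 22 (4.55% against 5.2% of all regions), a share near the background. With Flt3-ITD, 14 of the 22 were wider and 8 narrower by the fitted value, so that 63.6% were above 0 against 50.4% of all regions, with a median log2 difference of 0.18 against 0.00. By window, the fitted value was above 0 in 4 of 6 regions at Pim1, 7 of 10 at Cish and 3 of 6 at Bcl2l1, beside the same 50.4%. Widths that did not overlap between the sides were found in 0 of 22 regions in either direction (1.24% of all regions wider and 1.92% narrower with Flt3-ITD).

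The lowest p belonged to Pim1 region 10 (chr17:29647268-29648546), chosen after its values were seen. It was 211 and 109 bases wide in controls, 314 and 864 in Smc3 del/+, 671 and 1279 in Flt3-ITD and 973 and 920 in Smc3-deleted Flt3-ITD libraries. The sides overlapped only through Smc3 del/+ 2, which was wider than Flt3-ITD 1. The log2 difference by limma was 1.76 with a standard error of 0.49 and did not pass (adjusted p = 0.906). It was 2.54 for Flt3-ITD against control and 0.98 for Smc3-deleted Flt3-ITD against Smc3 del/+, neither of which passed. With the groups of the descriptions it was 0.89 (limma adjusted p = 0.936). Region 8 of the same window (chr17:29637129-29638850) was 132 and 633 bases wide in controls, 746 and 324 in Smc3 del/+, 1476 and 372 in Flt3-ITD and 1450 and 1177 in Smc3-deleted Flt3-ITD libraries. There 3 of the 4 widths with Flt3-ITD exceeded all 4 without (log2 difference 1.41, standard error 0.64, limma adjusted p = 0.906).

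**Figure D4:**
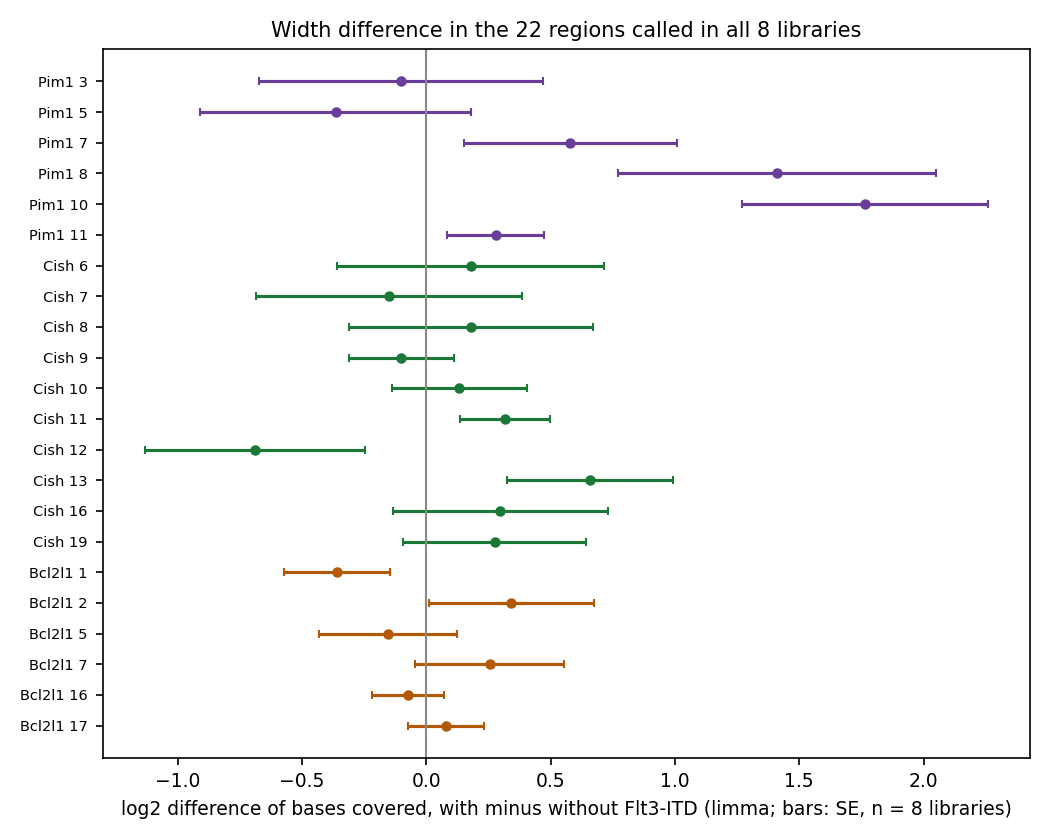
Fitted log2 difference in bases covered, with minus without Flt3-ITD (horizontal axis), for the 22 regions called in all 8 libraries (rows, by window and region number), with bars for the limma standard error over 8 libraries. Pim1 regions 8 and 10 lie farthest to the right at 1.41 and 1.76, Cish region 12 lies farthest to the left at -0.69, and no region passed the adjusted threshold.

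The interaction term of the same model asks whether the Flt3-ITD difference depends on Smc3 deletion. It also carries the Mx1-Cre difference, since only controls lacked the recombinase, and the 2 cannot be told apart in it. It passed for 0 of 22 window regions and 0 of 36101 in all (0.0%) after adjustment, and for 2 of 22 at an unadjusted p under 0.05 (9.09% against 6.32% of all regions), both at Cish. The first was region 13, which had the top score in all 8 libraries. It was 357 and 391 bases wide in controls, 404 and 377 in Smc3 del/+, 358 and 361 in Flt3-ITD and 941 and 1003 in Smc3-deleted Flt3-ITD libraries. The 2 libraries with both alleles were more than 2 times as wide as any of the other 6, which held for 31 of the 36101 regions (0.0859%). This criterion was set after the values were seen. The interaction was 1.56 on the log2 scale with a standard error of 0.37 and an adjusted p of 0.738 by limma.

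The added width of Cish region 13 lay on its lower side. In the Smc3-deleted Flt3-ITD libraries the peaks started at 107198478 and 107198535, and in the other 6 between 107198973 and 107199065. The ends were close together in all 8, from 107199376 to 107199537. The second was Cish region 7 (chr9:107185021-107186375), at 351 and 314 bases in controls, 1083 and 1147 in Smc3 del/+, 1007 and 535 in Flt3-ITD and 352 and 441 in Smc3-deleted Flt3-ITD libraries. Both Smc3 del/+ libraries and Flt3-ITD 1 were the widest, and the other 5 libraries, Flt3-ITD 2 included, lay at 535 bases or below. The interaction was -2.46 (log2, standard error 0.63, limma adjusted p = 0.738).

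Several of the broadest and highest ranking regions varied in width within genotypes. Pim1 region 7 (chr17:29634211-29636113), the broadest there, covered 414 and 1192 bases in controls, 1042 and 581 in Smc3 del/+, 1059 and 1356 in Flt3-ITD and 965 and 993 in Smc3-deleted Flt3-ITD libraries. Pim1 region 3, the only one there with the top score in all 8 libraries, covered 371 and 875 in controls, 745 and 275 in Smc3 del/+, 1541 and 305 in Flt3-ITD and 322 and 307 in Smc3-deleted Flt3-ITD libraries. In both the sides overlapped, and libraries of the same genotype differed by as much as the sides did.

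Cish region 6 was the broadest of its window and tied with regions 10 and 13 for the highest rank, with 516 and 825 bases in controls, 1703 and 551 in Smc3 del/+, 1490 and 1413 in Flt3-ITD and 527 and 546 in Smc3-deleted Flt3-ITD libraries. It was broad in both Flt3-ITD libraries and in Smc3 del/+ 1. Region 10 covered 312 and 231 bases in controls, 419 and 223 in Smc3 del/+, 377 and 368 in Flt3-ITD and 335 and 194 in Smc3-deleted Flt3-ITD libraries, with overlapping sides. At Bcl2l1 the broadest was region 2 (chr2:152593151-152594226), with 351 and 364 bases in controls, 374 and 479 in Smc3 del/+, 945 and 321 in Flt3-ITD and 456 and 395 in Smc3-deleted Flt3-ITD libraries. Region 7 tied with regions 16 and 17 for the highest rank there, with 410 and 301 bases in controls, 488 and 297 in Smc3 del/+, 375 and 802 in Flt3-ITD and 361 and 309 in Smc3-deleted Flt3-ITD libraries. A single Flt3-ITD library stood out in each of these Bcl2l1 regions, library 1 in region 2 and library 2 in region 7.

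Bcl2l1 region 5 (chr2:152610193-152611088), singled out after its values were seen, was called in all 8 libraries but not over the same bases. Both Flt3-ITD peaks lay in its lower part and ended at 152610623 and 152610624. The Smc3 del/+ peaks lay in the upper part, from 152610683 and 152610616, as did those of control 2 from 152610662 and of Smc3-deleted Flt3-ITD 1 from 152610657. Control 1 spanned both parts (152610270 to 152611018), and Smc3-deleted Flt3-ITD 2 covered the lower part to 152610704. The position within region 5 therefore differed between Flt3-ITD and Smc3 del/+ libraries and did not separate the 4 libraries with Flt3-ITD from the 4 without.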

How the data were processed

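ATAC-seq peak lists of 8 libraries were analysed, 1 list per library. The deposited lists give chromosome, start, end, name, a score and a strand, without a header. Bowtie (no version) and the mm9 build are listed in the submitters' processing notes. No source used here gives the peak caller, its settings or the meaning of the score, which the authors deposited between 0.99 and 1. The same holds for duplicates and the transposase offset, and either can move peak edges. Positions are counted from 1.

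Peaks were merged into regions in Python 3.11.15. The number of peaks, bases covered, median peak width and mean score percentile per window were compared by two-sided exact permutation tests (numpy 2.4.6), adjusted over 12 tests. Widths were fitted with limma 3.58.1 in R 4.3.3, with Flt3-ITD and Smc3 deletion as factors. The code was tested on simulated data. A planned edgeR test of read counts was not run, because the lists hold no counts. Members, lists and tests were chosen with earlier results of these data known. Regions described library by library were the broadest and the highest ranking of each window, those called in at least 3 of 4 libraries on 1 side and at most 1 of 4 on the other, and those past the width criteria (none). Others were picked after their values were seen. Alternatives covered equal numbers of peaks, stricter scores, a 100 bp overlap, scaling, window edges, centring, left-out libraries, the descriptions' groups and single genotypes.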

Additional observations from a re-analysis of the deposited data

Results flagged for a closer look

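Within the 4 libraries of a side, a library's gap to the nearest other was compared with the range of all 4. This was done for 36 groups of 4 values, and chance alone sets apart about 1 in 20 such groups. That rate does not hold for peak numbers, where 3 tied counts set apart any other count. In this way control 2, with 10 Pim1 peaks against 9 in the other 3 libraries without Flt3-ITD, was picked by a difference of 1 peak. So was Smc3 del/+ 1, with 11 Bcl2l1 peaks against 10. Control 1 stood apart among libraries without Flt3-ITD with a median Bcl2l1 peak width of 417.5 bases. Among libraries with Flt3-ITD, Smc3-deleted Flt3-ITD 2 covered 2985 bases at Bcl2l1, below the other 3. Flt3-ITD 1 was 1541 bases wide in Pim1 region 3 and Flt3-ITD 2 was 802 bases wide in Bcl2l1 region 7, each above the other 3.

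The number of Pim1 peaks moved in opposite directions in the Smc3 backgrounds. It was 3 lower in Flt3-ITD than in control libraries (a difference of -3) and 1.5 higher in Smc3-deleted Flt3-ITD than in Smc3 del/+ libraries, a gap of 4.5 peaks that was not tested. The width of Cish region 6 was 781 bases above control in the Flt3-ITD libraries. It was -590.5 bases relative to Smc3 del/+ in the Smc3-deleted Flt3-ITD libraries, a gap of -1371.5 bases. The limma interaction for that region was -1.82 on the log2 scale and did not pass (adjusted p = 0.816). Only controls lacked Mx1-Cre, so both gaps also carry that difference, which cannot be told apart from the Smc3 background.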

How the results depend on the processing

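Depth is unknown and each side has 4 libraries, so the exact test cannot go below p = 0.0286, or 0.333 for 2 against 2. Bases covered and median width at Cish kept their direction under every alternative run. No window measure passed after adjustment under any alternative, and no limma fit called a window region. Values below are differences with minus without Flt3-ITD. With the descriptions' groups, peak numbers differed by 1.75 at Pim1, -0.25 at Cish and 0.5 at Bcl2l1, Pim1 median width by -92.1 bases and score percentile by -12.0 at Pim1 (exact p = 0.0286, adjusted p = 0.343), -0.812 at Cish and -4.44 at Bcl2l1. The share of libraries calling Cish region 15 then differed by -25 points and Bcl2l1 region 14 by 25. No window region was then called only without Flt3-ITD (0 of 51, beside 193 of 114533 in the genome). Without both Smc3-deleted Flt3-ITD libraries, Pim1 bases differed by -91, Pim1 percentile by 4.51, Cish peaks by -0.25 and Bcl2l1 median width by 10.8 bases. Then 1 of 51 window regions was called only with Flt3-ITD, beside 1702 of 114533 in the genome. For Flt3-ITD against control, Pim1 bases differed by -15.5, Cish peaks by -1 and Bcl2l1 width by 4.75. Of 51 window regions, 1 was called only with and 6 only without, beside 2734 and 4852 of 114533 in the genome. Of 22 called in all libraries compared, 6 were wider and 1 narrower without overlap, beside 9344 and 5787 of 43618 in the genome. With widths divided by each library's median, 5 were wider and 6 narrower, beside 7107 and 8178 in the genome. For Smc3-deleted Flt3-ITD against Smc3 del/+, Pim1 peaks differed by 1.5 and Bcl2l1 percentile by -0.171. Of 51 window regions, 5 were called only with Flt3-ITD and 4 only without, beside 14087 and 4249 of 114533 in the genome. Of 25 called in all libraries compared, 7 were wider and 3 narrower without overlap, beside 5001 and 10456 of 41414 in the genome. With the same division by the median, 9 were wider and 1 narrower, beside 8665 and 6915 in the genome. With equal peak numbers the Pim1 percentile differed by 2.62. In the upper 50% of lists, percentiles differed by 2.07 at Pim1, -2.36 at Cish and -1.50 at Bcl2l1, and Bcl2l1 by 0.25 peaks and 33 bases. There 1 of 30 window regions was called only without Flt3-ITD, beside 314 of 56689 in the genome. At the top score that count was 0 of 19, beside 45 of 36312, and no percentile could be computed. As a share of the list, Cish peaks differed by -1.72 per 100000 listed peaks.

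Leaving out each library in turn gave -1.58 to 0.0833 for Pim1 peaks (the highest without Flt3-ITD 1), -5.80 to 1.77 for Pim1 percentile, -0.25 to 1.08 for Cish peaks, -7.17 to 6.67 for Bcl2l1 width and -0.480 to 3.76 for Bcl2l1 percentile. It gave 0 to 1 region called only with Flt3-ITD (1 without control 2 or Flt3-ITD 1, beside 1304 and 1857 of 114533 in the genome). It gave 0 to 1 wider without overlap (1 without control 1, Smc3 del/+ 2, Flt3-ITD 1 or Flt3-ITD 2). In that order, the genome had 880 of 36498, 1013 of 37801, 829 of 36872 and 845 of 37137 such regions. It gave 0 to 1 narrower (1 without Flt3-ITD 1, beside 1383 of 36872 in the genome). Libraries with the same replicate number did not deviate together in width (correlations of -0.0133 to 0.00861 over 36101 regions). These widths thus show no pairing by number, which does not exclude one. With the replicate number as a block, the exact p for Cish bases was 0.0556, the smallest it can then give, and Pim1 region 10 kept a log2 difference of 1.76 (limma adjusted p = 0.913).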
